A study of Mus musculus with 9 samples.

Results

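The interferon response genes described here are 9 transcripts of mouse bone marrow-derived mast cells, chosen by gene symbol: Isg15, Rsad2, Usp18, Stat2, Irf1, Irf7, Irf9, Ifih1 and Ddx58. All 9 were among the 15109 genes of the count table. The cells came from marrow of wild-type C57BL/6 mice, kept 4 weeks or longer with 20% serum and 30% medium conditioned by WEHI-3 cells, which supplies interleukin 3. Control cells were untreated. BSA cells were sensitised with anti-DNP IgE and stimulated with DNP-BSA, an antigen that crosslinks IgE on its high-affinity receptor. Taxinine cells received the same IgE and antigen after 1 h of pretreatment with taxinine, a taxane diterpenoid of yew. Each group had 3 libraries. The labels give no dose, vehicle, antigen exposure time or group with taxinine alone, and no group was given interferon. The design text calls the samples biological replicates without naming separate mice or cultures, so a p-value here sets a difference against sample-to-sample spread that may be purely technical.

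Interferons are cytokines of antiviral defence. Type I interferon binds a receptor whose kinases JAK1 and TYK2 phosphorylate STAT proteins, among them STAT2, which enters the nucleus with IRF9 and binds, as part of a complex, a DNA element called the interferon-stimulated response element, or ISRE. Interferon gamma acts at a different element, the gamma-activated site, or GAS. Many cells keep a low level of this programme without added interferon. Upstream of it, RNA sensors such as RIG-I and MDA5 induce interferon through IRF3 and IRF7. Mast cells respond to viral RNA as well as to antigen.

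Levels are CPM, counts brought to one common library size after TMM scaling (trimmed means of log ratios between libraries), given as mean ± SD over 3 libraries. Values of single libraries follow the order of replicates 1, 2 and 3. Total count scaling below means the same fit without TMM factors. A gene was called where edgeR's quasi-likelihood test gave a Benjamini-Hochberg adjusted p under 0.05 over all 15109 genes, and log2 fold changes are given ± SE. Total counts ran from 8975371 in Taxinine replicate 1 to 14116976. All 11 mast cell markers were measured, with summed levels of 53600 to 55100 CPM in Control, 57500 to 59500 in BSA and 57500 to 58800 in Taxinine. In BSA against Control 6 of the 11 were called higher and 1 lower, where 16.2% of all genes were higher and 17.8% lower. Total count scaling gave 2 and 8. Hdc rose from 195 ± 1.46 to 1208 ± 44 CPM, and Ms4a2 fell from 2179 ± 80.5 to 1713 ± 53.9. In Taxinine against BSA 0 were higher and 2 lower, Gata2 and Mitf, where 2.86% of all genes were higher and 4.12% lower. The 8 macrophage and monocyte markers summed to 141 to 144 CPM in Control, 149 to 163 in BSA and 128 to 136 in Taxinine. In BSA against Control 2 of the 8 were called higher and 0 lower, where 16.2% of all genes were called higher and 17.8% lower. Over the alternative settings the higher count ran from 1 to 3. In Taxinine against BSA 0 of the 8 were called higher and 2 lower, where 2.86% of all genes were higher and 4.12% lower. Lyz2, at 14.6, 21.8 and 14.95 CPM on average, was called in both. Cx3cr1, at 68.1, 66.4 and 52.9 CPM, was not called in BSA against Control and was lower in Taxinine. Adgre1, at 44.2, 49.8 and 47.5 CPM, was called only in BSA against Control. Csf1r and Mrc1 averaged no more than 1.02 CPM in any group. Of 8 dendritic cell markers, 3 were measured (Bst2, Tcf4 and Itgax), with sums of 93.2 to 95.1, 94.7 to 104 and 95.4 to 99 CPM in the same order. Bst2, which is also on the list of interferon-stimulated genes below, averaged 47.35, 49.7 and 47.4 CPM of these sums. The defining markers Flt3, Xcr1, Zbtb46 and Siglech were not among the genes of the table. The 3 basophil markers summed to 1320 to 1340, 1290 to 1340 and 1200 to 1220 CPM. Of 6 neutrophil markers 1 was measured, at no more than 0.946 CPM, and of 7 lymphocyte markers 2, at no more than 3.07 CPM. S100a8, S100a9, Mpo, Elane and Cd3e were not among the genes of the table. The part of other cell types in the changes below was not tested, and fewer cells expressing a gene cannot be told apart from less RNA per cell.

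In BSA against Control, 7 of the 9 genes were called, 3 higher and 4 lower. Isg15, Rsad2 and Ifih1 rose, and Stat2, Usp18, Irf1 and Irf9 fell. Irf7 and Ddx58 did not pass. Among all genes, 34.0% were called in this comparison, 16.2% higher and 17.8% lower, with a median log2 fold change of -0.0041. Of the 12537 genes left after a filter for low counts (filterByExpr), 40.9% were called. The 9 genes and the lists below were chosen with earlier results of these data known. A share above that of all genes therefore cannot be read as a result. With total count scaling 52.8% of all genes were called there, 7.15% higher and 45.6% lower. The median of the 9 was 0.07. The libraries of both groups did not overlap for 8 of the 9 genes and for 42.9% of all genes. In Taxinine against BSA 1 of the 9 was called, Stat2, which was higher, against 6.98% of all genes (2.86% higher, 4.12% lower). The count of lower genes was 0 with edgeR and 0 with DESeq2, and at an unadjusted p under 0.05 it was 2, Usp18 and Ddx58. At that threshold 1420 of all 15109 genes were higher and 1570 lower. Groups did not overlap for 2 of the 9 genes, Usp18 and Stat2, and for 23.9% of all genes. In Taxinine against Control 3 were called higher and 4 lower, where 33.1% of all genes were called, 15.9% higher and 17.2% lower, and groups did not overlap for 7 of the 9 genes and for 43.7% of all. Both comparisons of an antigen-treated group with Control share the same 3 Control libraries.

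**Figure D1:**
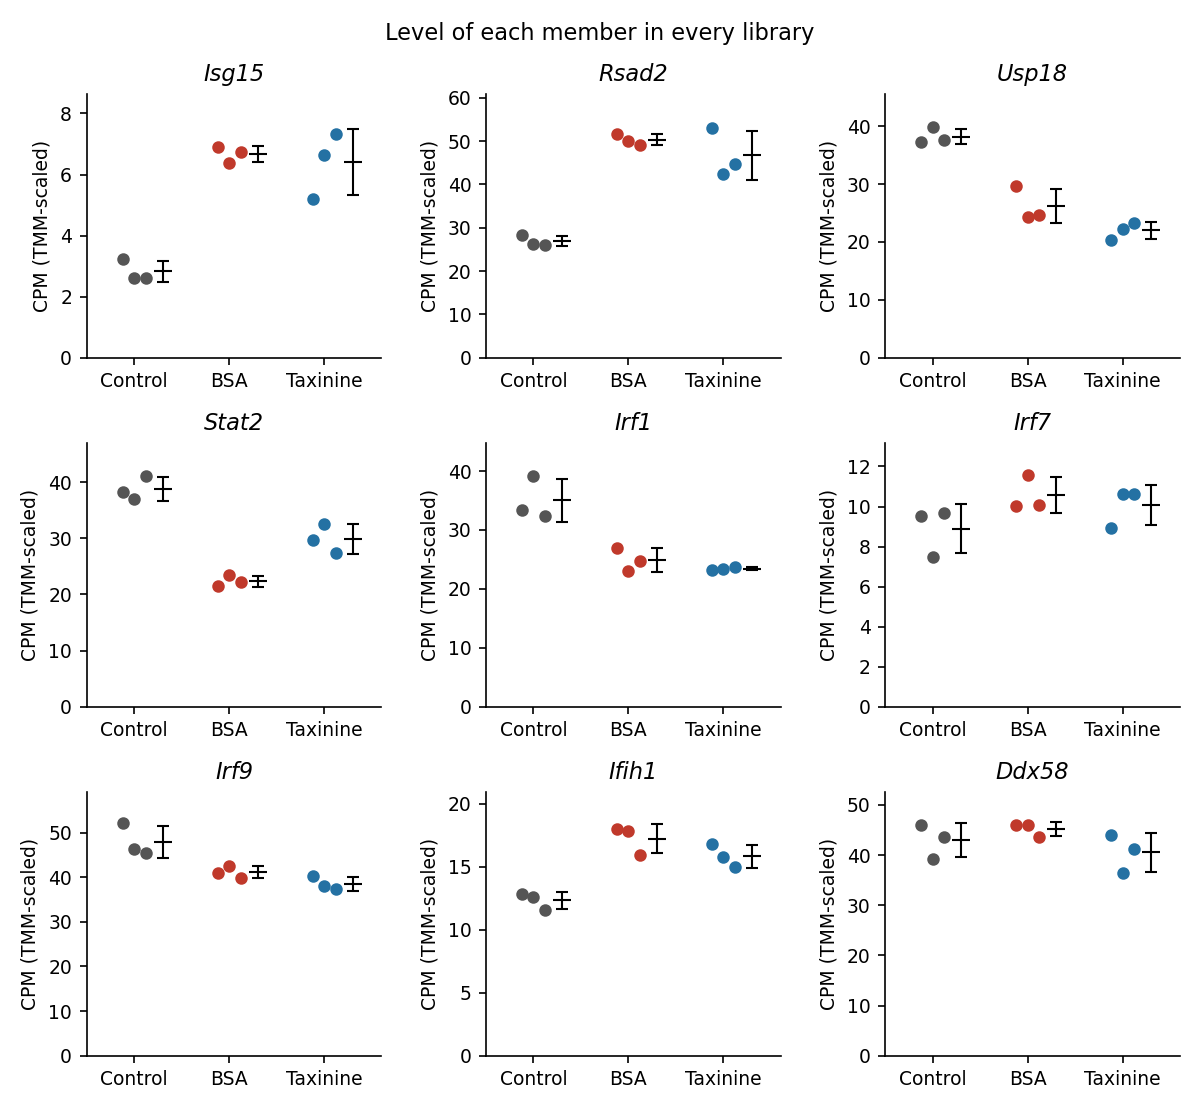
Level of each of the 9 genes in every library, in TMM-scaled CPM (vertical axes start at 0), for Control, BSA and Taxinine. Points are libraries in replicate order 1 to 3, and the bar beside them is the mean with its SD. Stat2 is the gene whose Taxinine libraries lie between the other groups, at 27.4 to 32.6 CPM against 36.9 to 41.0 in Control and 21.5 to 23.4 in BSA.

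The promoter windows of RefSeq (GRCm38.p6; 250 bases before to 50 after each start) held 10 windows for 8 of the 9 genes, all but Usp18. They were searched on both strands for the core of the ISRE (GAAA, any 2 bases, GAAA), for the GAS, TTCNNNGAA, which reads the same on both strands, and for the kB motif. The ISRE core was found in 5 of the 10 windows and in 3.44% of all 32851 windows. These were the windows of Isg15, Rsad2, Stat2, Ifih1 and Ddx58. The windows of Irf7, Irf9 and Irf1 did not contain these letters. The GAS and the kB motif were found in 1 of the 10 windows each, in both cases that of Irf1, and in 8.3% and 8.46% of all windows. The stretches before the start that hold the ISRE core, and that of Irf1 with its GAS and kB motifs, are shown because they set genes that rose (Isg15, Rsad2) beside genes that fell (Stat2, Irf1). Each reads 5′ to 3′ on the gene's strand, with matches in capitals. The sequence of Isg15 is chr4:156200850-156200921 (minus strand), that of Rsad2 chr12:26456538-26456597 (minus), that of Stat2 chr10:128270251-128270310 (plus) and that of Irf1 chr11:53769909-53770013 (plus).
Isg15: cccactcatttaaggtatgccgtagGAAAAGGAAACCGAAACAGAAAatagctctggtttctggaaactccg
Rsad2: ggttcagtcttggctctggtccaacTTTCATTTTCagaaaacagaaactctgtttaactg
Stat2: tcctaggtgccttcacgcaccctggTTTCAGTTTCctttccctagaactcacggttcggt
Irf1: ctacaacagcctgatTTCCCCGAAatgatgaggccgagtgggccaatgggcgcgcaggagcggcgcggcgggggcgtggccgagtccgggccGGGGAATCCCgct
The capitals of Isg15 cover 3 overlapping ISRE cores from position -78 to -57, with the start at 1. Rsad2 and Stat2 each have 1, on the opposite strand, at -120 to -111 and -222 to -213. The matches of Ifih1 (33 to 42) and Ddx58 (3 to 12) lie after the start. In Irf1 the GAS is at -90 to -82 and the kB motif at -13 to -4. A match of letters is no measurement of binding.

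The RNA sensors come first in the pathway. Ifih1 (GRCm38 chromosome 2, 62595798 to 62646255) encodes MDA5, a helicase that detects long double-stranded RNA. It was at 12.8, 12.6 and 11.6 CPM for Control, 18.0, 17.8 and 15.9 for BSA, then 16.8, 15.8 and 14.96 for Taxinine. Every antigen-treated library lay above every Control library. The mean rose from 12.3 ± 0.665 to 17.2 ± 1.15 in BSA, a log2 fold change of 0.49 ± 0.10 (edgeR adjusted p = 6.19e-05). Taxinine, at 15.8 ± 0.912, was higher than Control by 0.35 ± 0.10 (adjusted p = 0.00468), a call lost when TMM factors were left out (0.15) or limma was used (0.15). Against BSA the difference was -0.13 ± 0.10, with a 95% interval from -0.33 to 0.06 on the log2 scale. The interval spans a fall of 20.5% and a rise of 4.41%.

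Ddx58 (chromosome 4, 40203773 to 40239828) encodes RIG-I, the related helicase that detects RNA with a 5′ triphosphate. Its levels were 45.9, 39.3 and 43.6 CPM for Control, 45.9, 45.9 and 43.6 for BSA, then 44.0, 36.3 and 41.3 for Taxinine. The 3 groups overlapped. The difference of BSA from Control was 0.07 ± 0.07 (95% interval -0.06 to 0.21; adjusted p = 0.448), and its sign turned to -0.15 with total count scaling. Taxinine differed from BSA by -0.16 ± 0.07 (adjusted p = 0.189) and from Control by -0.09 ± 0.07 (adjusted p = 0.376). With total count scaling the difference from Control was -0.29 and was called.

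Of the 19 listed genes of RNA and DNA sensing, 17 were measured, and in BSA against Control 1 was higher (Ifih1) and 4 were lower, with a median of -0.10, where 34.0% of all genes were called. With total count scaling 1 was higher and 9 were lower, where 45.6% of all genes were lower. Trim25 and Rnf135, ubiquitin ligases that act on RIG-I, fell by 0.60 (SE 0.06) and 1.05 (SE 0.13) on the log2 scale. Trim25 went from 58.8 ± 2.42 to 38.8 ± 3.08 CPM and Rnf135 from 11.3 ± 0.672 to 5.45 ± 0.476. The mean of Rnf135 in Taxinine was 6.80 ± 1.22 CPM. Ikbke, which encodes a kinase of IRF3 and IRF7, was lower by 0.34 (SE 0.10), a call lost without Control replicate 2 (-0.24; adjusted p = 0.0664). Sting1, which encodes the adaptor of cytosolic DNA sensing, was at 21.35, 19.6 and 18.0 CPM for Control, 13.4, 13.3 and 12.9 for BSA, then 10.3, 9.22 and 11.5 for Taxinine. Its 3 groups did not overlap, with Control highest and Taxinine lowest. Sting1 fell by 0.57 (SE 0.10; adjusted p = 5.07e-06) in BSA. Between Taxinine and BSA the difference of Sting1 was -0.35 ± 0.11 and was not called (adjusted p = 0.0542). It passed under 6 of 17 alternatives, among them those without Control replicate 1 (-0.35; adjusted p = 0.0454) or 2 (-0.35; 0.0476) or Taxinine replicate 3 (-0.45; 0.0413), and over all 17 the adjusted p ran from 0.0413 to 0.263. No gene of the 17 was called in Taxinine against BSA by edgeR or DESeq2 (0 in each direction). At an unadjusted p under 0.05 1 was higher (Rnf135) and 2 were lower (Ddx58 and Sting1), against 1420 and 1570 of all 15109 genes.

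Next stand the IRF transcription factors. Irf1 (chromosome 11, 53770014 to 53778374), a factor induced by interferon gamma through a GAS, was at 33.4, 39.2 and 32.4 CPM for Control, 27.0, 23.0 and 24.7 for BSA, then 23.1, 23.4 and 23.7 for Taxinine. Control lay above both other groups without overlap, and BSA and Taxinine overlapped. It fell from 35.0 ± 3.70 to 24.9 ± 1.97 in BSA (-0.49 ± 0.08; adjusted p = 1.86e-06), and Taxinine at 23.4 ± 0.252 differed from Control by -0.58 ± 0.08 (adjusted p = 1.45e-07). The difference between Taxinine and BSA was -0.09 ± 0.09, with an interval from -0.27 to 0.09. Its exons share 135 bases, 3.4% of their length, with Gm17334 on the opposite strand.

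Irf9 (chromosome 14, 55603571 to 55610030) encodes the DNA-binding partner of STAT2. Its values were 52.1, 46.2 and 45.5 CPM for Control, 40.8, 42.6 and 39.8 for BSA, then 40.2, 37.9 and 37.3 for Taxinine. Control replicate 1 was the highest library. The means were 47.9 ± 3.63, 41.1 ± 1.38 and 38.5 ± 1.49. The fall in BSA was -0.22 ± 0.06 (adjusted p = 0.00574), which did not pass without Control replicate 1 (-0.16; adjusted p = 0.0781). Taxinine differed from Control by -0.32 ± 0.07 (adjusted p = 0.000143) and differed from BSA by -0.10 ± 0.07 (interval -0.24 to 0.04). The exons of Irf9 share 123 bases, 2.3% of its exonic length, with Rnf31 on the same strand, so some reads cannot be assigned with certainty.

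Irf7 (chromosome 7, 141262706 to 141266481), the factor that amplifies interferon alpha production, was low in these cells. It was at 9.52, 7.49 and 9.68 CPM for Control, 10.02, 11.6 and 10.1 for BSA, then 8.91, 10.7 and 10.7 for Taxinine. The BSA libraries lay above those of Control without overlap, but the difference of 0.25 ± 0.12 was not called (adjusted p = 0.104; 95% interval 0.01 to 0.49). It was 0.02 with total count scaling. Taxinine differed from BSA by -0.06 ± 0.12 (interval -0.31 to 0.19). Exons of Irf7 share 45 bases, 1.2% of its length, with Phrf1 on the opposite strand, whose reads cannot be told apart where strand was not counted.

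In the IRF family, 8 of 9 genes were measured, and in BSA against Control 0 were called higher and 3 lower by edgeR, where 34.0% of all genes were called. Total count scaling gave 0 and 5, where 45.6% of all genes were lower. DESeq2 gave 0 higher and 3 lower, as edgeR did with TMM factors. At an unadjusted p under 0.05 1 was higher, Irf7, and 3 were lower, against 2989 and 3293 of all 15109 genes. The third lower gene was Irf3, which encodes the constitutive factor activated by RNA sensing, at 30.1 ± 2.57 against 36.4 ± 0.662 CPM (-0.27 ± 0.07). Irf5, which encodes a factor downstream of Toll-like receptors, was at 24.5, 24.5 and 24.5 CPM for Control, 22.9, 22.9 and 23.4 for BSA, then 17.1, 17.5 and 17.1 for Taxinine. It was the 1 family member called in Taxinine against BSA, at -0.42 ± 0.09 (adjusted p = 0.000807), and was not called in BSA against Control (-0.09 ± 0.08), where total count scaling gave -0.32 and a call. Of the 3 genes of IRF2 binding proteins, which are corepressors, Irf2bp2 rose in BSA from 151 ± 8.80 to 221 ± 12.6 CPM (0.55 ± 0.05). Irf2bp1 fell by 0.33 (SE 0.08), and Irf2bpl gave -0.17 ± 0.08 and was not called (adjusted p = 0.0841). Irf2bpl passed with total count scaling (-0.40), upper-quartile scaling (-0.20) or limma (-0.39), and without BSA replicate 2 (-0.22). Taxinine had less Irf2bpl than BSA (-0.43 ± 0.09). Irf2bp2 was also lower in Taxinine than in BSA (-0.17 ± 0.05), and lost that call without BSA replicate 3 (-0.13) or without Taxinine replicate 1 (-0.17), 2 (-0.18) or 3 (-0.18).

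Stat2 (chromosome 10, 128270559 to 128292849) encodes the STAT protein particular to type I and type III interferon signalling. Its levels were 38.2, 36.9 and 41.0 CPM for Control, 21.5, 23.4 and 22.2 for BSA, then 29.7, 32.6 and 27.4 for Taxinine. The 3 groups were separate from one another, with Control highest, Taxinine next and BSA lowest. The mean fell from 38.7 ± 2.10 to 22.4 ± 0.972 in BSA, by 0.79 on the log2 scale (SE 0.08; adjusted p = 8.93e-12), or 42.2%. In Taxinine it was 29.9 ± 2.63, higher than in BSA by 0.41 ± 0.08 (adjusted p = 0.000628) and differed from Control by -0.38 ± 0.07 (adjusted p = 6.06e-05). The rise in Taxinine over BSA was 33.2%, with an interval from 18.7% to 49.4%. Its 3 calls held under all 17 alternative settings, with values of 0.34 to 0.48 in Taxinine against BSA.

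Among the 7 STAT genes, all measured, 2 were called higher and 2 lower in BSA against Control, with a median of -0.04, where 34.0% of all genes were called. Total count scaling gave 0 higher and 5 lower, where 45.6% of all genes were lower. Stat5a fell by 0.15 (SE 0.05), a call lost with DESeq2 (-0.14) and without Control replicate 3 (-0.14) or BSA replicate 1 (-0.13) or 2 (-0.12). Stat6 (0.13 ± 0.05) was called higher but stood at -0.094 with total count scaling. It lost the call with upper-quartile scaling (0.11) and without Control replicate 3 (0.12) or BSA replicate 1 (0.13). Stat4 (0.18 ± 0.07, edgeR adjusted p = 0.0477) stood at -0.046 with total count scaling. It lost the call with DESeq2 (0.19), upper-quartile scaling (0.15) or a fit of the 2 groups only (0.18). The call was also lost without Control replicate 1 (0.18) or 2 (0.15), BSA replicate 1 (0.16) or 3 (0.16), or Taxinine replicate 1 (0.18). DESeq2 called 1 STAT gene higher and 1 lower. Stat2 was the 1 STAT gene called in Taxinine against BSA, and Stat4, at -0.22 ± 0.08, passed there without BSA replicate 2 (-0.27) or Taxinine replicate 3 (-0.29).

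**Figure D2:**
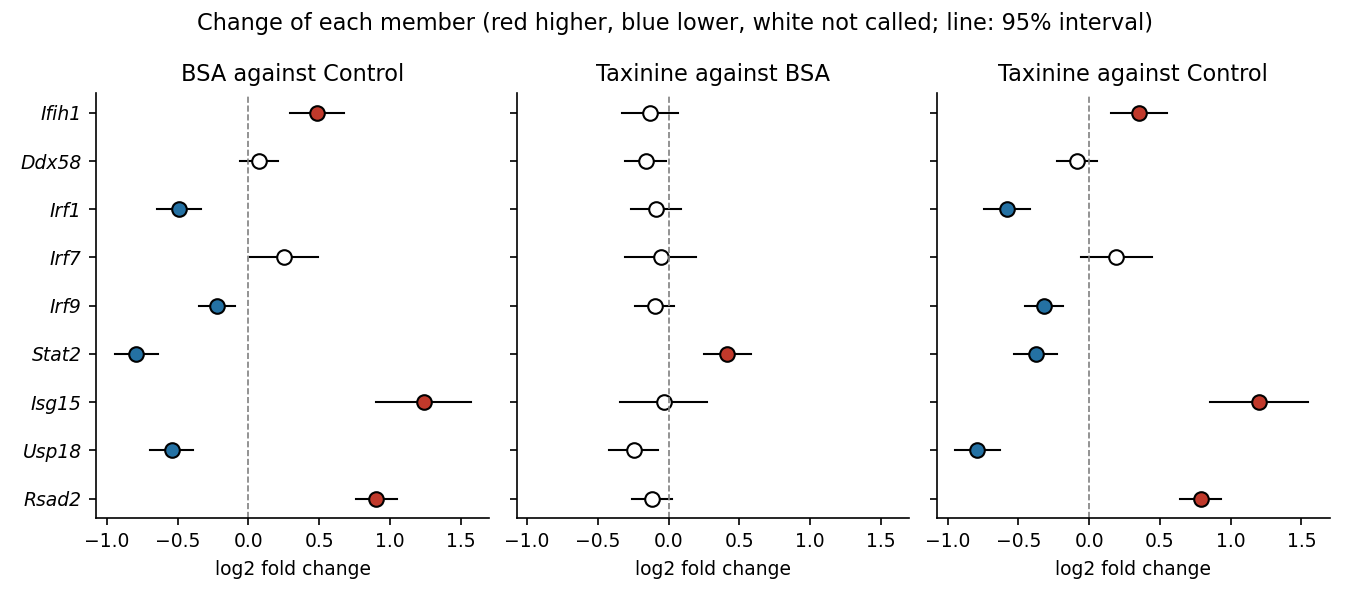
Log2 fold change of each gene in the 3 comparisons, with its unadjusted 95% interval as a line. Filled points passed edgeR's test (red higher, blue lower) and white points did not. The middle panel holds 1 filled point, Stat2 at 0.41.

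Among the receptor and kinase genes, 9 of 10 were measured. In BSA against Control 1 was higher, the kinase gene Jak1 (0.12 ± 0.04), and 2 were lower, where 34.0% of all genes were called. Jak1 was called lower with total count scaling (-0.11) or limma (-0.11). It was not called with upper-quartile scaling (0.09) or without Control replicate 2 (0.10). With total count scaling 0 receptor and kinase genes were higher and 8 lower, where 45.6% of all genes were lower. Ifngr2, a chain of the interferon gamma receptor, fell from 11.3 ± 0.578 to 5.19 ± 0.609 CPM (-1.12 ± 0.13; adjusted p = 1.44e-09) and was at 5.43 ± 0.418 in Taxinine. Ifnar1, a chain of the type I receptor, was at 55.5, 53.6 and 58.0 CPM for Control, 43.4, 42.9 and 45.5 for BSA, then 55.5, 52.5 and 47.8 for Taxinine. BSA was the lowest group, without overlap with either of the others, and Control and Taxinine overlapped. Taxinine differed from Control by -0.11 ± 0.06, which was not called (edgeR adjusted p = 0.187). With total count scaling (-0.31) or limma (-0.30) Ifnar1 was called lower in Taxinine than in Control. Ifnar1 fell by 0.34 (SE 0.06) in BSA and was higher in Taxinine than in BSA by 0.24 ± 0.07 (adjusted p = 0.0178). That call was lost without BSA replicate 1 (0.23) or 2 (0.22) and without Taxinine replicate 1 (0.19) or 2 (0.22). Of 12 listed interferon genes 1 was measured: Ifna2, with 0 counts over the 3 Control libraries, 7 over BSA and 5 over Taxinine. Each gene of the table was counted in 4 or more libraries, so Ifna2 was in it only through the antigen-treated groups. Its call as higher in BSA by edgeR (adjusted p = 0.0163), which DESeq2 did not make, therefore cannot be read as a rise. The interferon alpha genes are near-identical copies, so these few reads cannot be assigned to Ifna2 with certainty.

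Isg15 (chromosome 4, 156199424 to 156200818) encodes a ubiquitin-like protein that is joined to other proteins after interferon. It showed the largest rise of the 9 genes. Its values were 3.24, 2.62 and 2.62 CPM for Control, 6.91, 6.38 and 6.73 for BSA, then 5.21, 6.66 and 7.33 for Taxinine, from 40 to 97 counts a library. Both antigen-treated groups lay above Control without overlap, and overlapped with each other. The mean rose from 2.83 ± 0.357 to 6.67 ± 0.267 in BSA, by 1.24 ± 0.17 (adjusted p = 5.62e-08), which is 2.36-fold. In Taxinine it was 6.40 ± 1.08, higher than Control by 1.20 ± 0.17 (adjusted p = 2.22e-07). The difference between Taxinine and BSA was -0.04 ± 0.15, with an interval from a fall of 21.1% to a rise of 20.6%. The lowest Taxinine library was replicate 1, the one with the fewest counts, and without it the difference was 0.07.

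Usp18 (chromosome 6, 121245906 to 121270917) encodes the protease that removes ISG15 from proteins and also restrains the type I receptor. It was at 37.3, 39.8 and 37.6 CPM for Control, 29.6, 24.3 and 24.7 for BSA, then 20.4, 22.3 and 23.3 for Taxinine. The groups did not overlap, with Control highest and Taxinine lowest. The mean fell from 38.2 ± 1.37 to 26.2 ± 2.95 in BSA, by 0.54 (SE 0.08; adjusted p = 1.23e-07), or 31.3%. Taxinine, at 22.0 ± 1.51, differed from Control by -0.79 ± 0.08 (adjusted p = 4.87e-11). It differed from BSA by -0.25 ± 0.09, which was not called (adjusted p = 0.0730; 95% interval from a fall of 25.3% to one of 4.98%). Groups did not overlap in 23.9% of all genes in that comparison. Without BSA replicate 2 the difference passed (-0.30; adjusted p = 0.0337). Exons of Usp18 share 124 bases, 4.4% of their length, with the noncoding Gm44148 on the opposite strand.

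All 6 listed genes of ISG15 conjugation were measured, and in BSA against Control 1 was higher, Isg15, and 4 were lower: Uba7, Herc6, Trim25 and Usp18. The median was -0.43, against -0.0041 for all genes, of which 34.0% were called. Uba7, the activating enzyme, fell from 198 ± 1.76 to 154 ± 6.17 CPM (-0.36 ± 0.05), and Herc6, the mouse ligase, from 19.8 ± 1.21 to 13.9 ± 0.445 (-0.51 ± 0.09). Ube2l6, the conjugating enzyme, gave 0.23 ± 0.12 and was not called. The counts were 1 higher and 4 lower in all 17 alternatives too. Uba7 fell further from BSA to Taxinine, to 135 ± 4.63 CPM (-0.19 ± 0.05; adjusted p = 0.00610), and lost the call without Taxinine replicate 2 (-0.17; adjusted p = 0.0703).

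Rsad2 (chromosome 12, 26442746 to 26456452) encodes viperin, an antiviral radical SAM enzyme. Its values were 28.3, 26.4 and 26.04 CPM for Control, 51.7, 50.04 and 49.2 for BSA, then 53.1, 42.5 and 44.7 for Taxinine. Both antigen-treated groups lay above Control, and they overlapped with each other. The mean rose from 26.9 ± 1.22 to 50.3 ± 1.27 in BSA (0.90 ± 0.07; adjusted p = 2.45e-14), which is 1.87-fold. In Taxinine it was 46.8 ± 5.61, higher than Control by 0.79 ± 0.07 (adjusted p = 4.43e-12), and the difference from BSA was -0.12 ± 0.07 (interval -0.26 to 0.02). Cmpk2 (chromosome 12, 26469204 to 26479837), the neighbouring gene on the opposite strand and a nucleotide kinase also induced by interferon, was looked at after its values were seen. It was at 4.06 ± 0.581 CPM in Control, 3.43 ± 0.271 in BSA and 4.12 ± 0.575 in Taxinine, and was not called (-0.24 ± 0.18; adjusted p = 0.345), though total count scaling gave -0.46 and a call.

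The wider list of interferon-stimulated genes held 43 measured of 50. In BSA against Control 6 were called higher, 7 lower and 30 not called, with a median of -0.01 against -0.0041 for all genes, of which 34.0% were called. Total count scaling gave 4 higher and 27 lower, where 7.15% of all genes were higher and 45.6% lower. Besides Isg15, Rsad2 and Usp18, Cxcl10, a chemokine for T cells, rose from 0.521 ± 0.169 to 2.36 ± 0.238 CPM (2.16 ± 0.32). Helz2, a helicase and coactivator gene, rose from 45.4 ± 3.01 to 69.6 ± 5.90 (0.62 ± 0.06). Trim21, a cytosolic antibody receptor, fell from 24.3 ± 0.197 to 12.2 ± 1.42, and Dtx3l, a ubiquitin ligase gene, by 0.50 (SE 0.06). Set against BSA, Taxinine had 0 higher and 2 lower by edgeR and by DESeq2. Among all genes edgeR called 2.86% higher and 4.12% lower there. At an unadjusted p under 0.05, 3 of the list were higher and 7 lower, against 1420 and 1570 of all 15109 genes. The 2 called lower were Slfn2, a regulator of cell quiescence (-0.28 ± 0.06), and the GTPase gene Ifi47 (-0.32 ± 0.08). Ifi47 lost its call without BSA replicate 1 (-0.28) and without Taxinine replicate 2 (-0.32) or 3 (-0.29).

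Of 24 targets typical of interferon gamma 22 were measured, 5 higher and 5 lower in BSA against Control, with a median of 0.01, where 34.0% of all genes were called. The counts were 1 and 11 with total count scaling, where 7.15% of all genes were higher and 45.6% lower. The guanylate-binding protein gene Gbp6 rose from 35.7 ± 0.470 to 57.0 ± 1.89 CPM (0.68 ± 0.06), and Gbp4 by 0.32 ± 0.05, a call lost with total count scaling (0.09). Irgm2, an immunity-related GTPase gene, fell from 16.4 ± 1.02 to 8.79 ± 2.75 (-0.88 ± 0.13). These GTPase genes have close paralogs, among which reads may be split. Between Taxinine and BSA edgeR and DESeq2 called 0. At an unadjusted p under 0.05, 0 were higher and 3 lower, against 1420 and 1570 of all 15109 genes.

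The feedback inhibitors of JAK-STAT signalling had 7 higher and 4 lower of 13 in BSA against Control, where 34.0% of all genes were called. They had 3 and 5 with total count scaling, where 52.8% of all genes were called. Cish (0.94 ± 0.04), Socs3 (1.22 ± 0.08) and Socs2 (0.69 ± 0.05), of the SOCS family of inhibitors, rose. Socs1, which encodes the inhibitor of JAK kinases at both interferon receptors, was at 60.6, 49.97 and 46.6 CPM for Control, 32.8, 31.8 and 27.5 for BSA, then 22.5, 26.8 and 22.7 for Taxinine. The 3 groups did not overlap. It fell by 0.76 (SE 0.08) in BSA and by a further 0.36 (SE 0.09; adjusted p = 0.0106) in Taxinine against BSA, a call lost without BSA replicate 1 (-0.31) or Taxinine replicate 1 (-0.33) or 3 (-0.31). Pias3, an inhibitor of STAT3, fell by 0.69 (SE 0.07) in BSA.

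**Figure D3:**
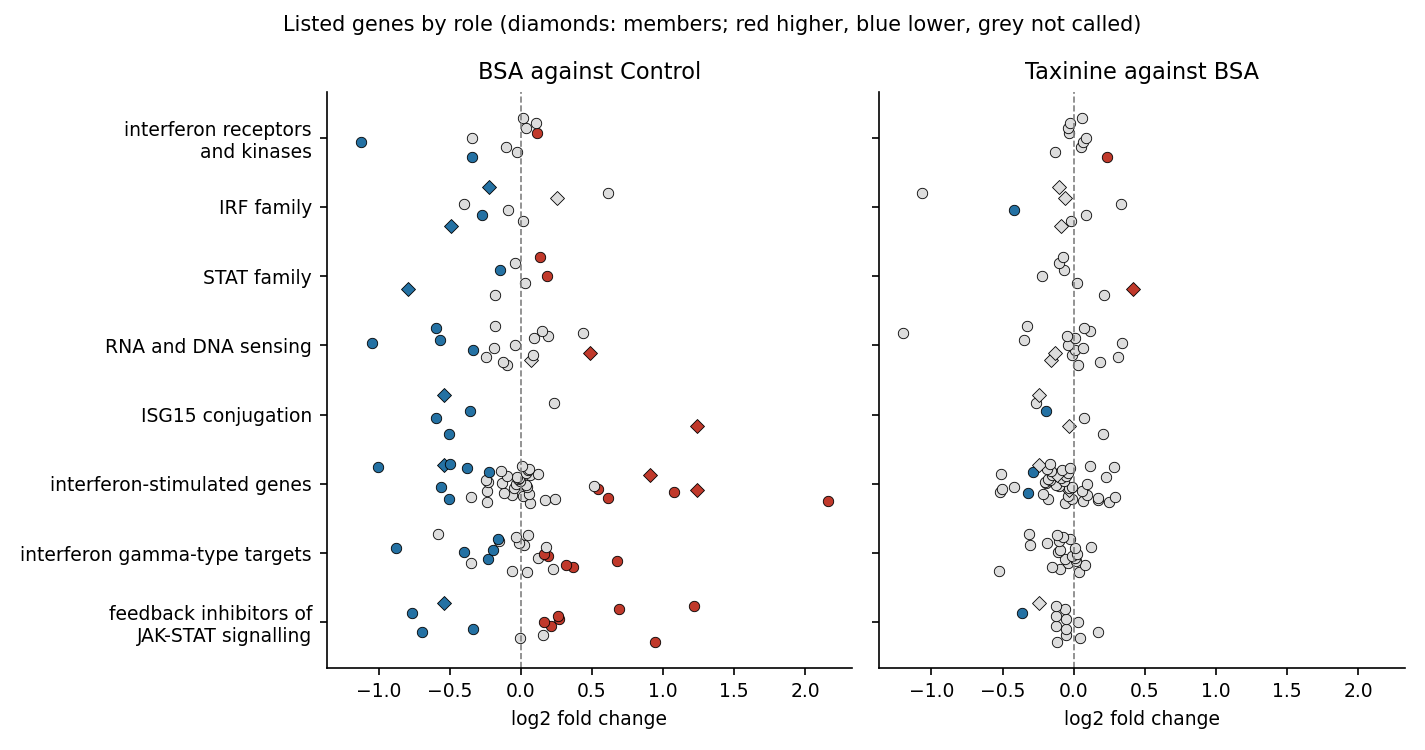
Log2 fold change of every measured gene of 8 lists, by role, in BSA against Control (left) and Taxinine against BSA (right). Diamonds are the 9 genes, circles other listed genes; red and blue passed edgeR's test, grey did not. The interferon-stimulated genes spread to both sides of 0 on the left, with 6 red and 7 blue of 43.

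Levels of different genes were compared per kilobase of exonic sequence (GENCODE M21). In Control the highest of the 9 was Usp18, at 13.7 ± 0.491 CPM per kb, followed by Irf9 (8.90 ± 0.674) and Irf1 (8.80 ± 0.931). The lowest were Irf7 (2.36 ± 0.323) and Ifih1 (1.51 ± 0.0815). The annotated exons of Irf7 together cover its whole span of 3776 bases, so its level per kb may be understated and its place in the order rests on that annotation. The same holds for Irf9, whose exons cover 5386 bases, in 6 blocks, of the span from 55603571 to 55610030. In CPM not divided by length, Irf9 (47.9 ± 3.63) stood above Usp18 (38.2 ± 1.37) in Control. The place of Usp18 as highest therefore rests on the exon lengths used. In BSA, Rsad2 stood highest at 11.6 ± 0.293, then Usp18 at 9.39 ± 1.06 and Isg15 at 8.83 ± 0.353, and the last pair of genes overlapped in their libraries. In Control, Isg15 had been at 3.74 ± 0.472, the seventh of the 9. In Taxinine the order began with Rsad2 (10.8 ± 1.29), Isg15 (8.46 ± 1.43) and Usp18 (7.88 ± 0.541), and the SDs of neighbours among these 3 overlapped. Stat2 was at 6.53 ± 0.354, 3.77 ± 0.164 and 5.05 ± 0.444 CPM per kb in Control, BSA and Taxinine.

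**Figure D4:**
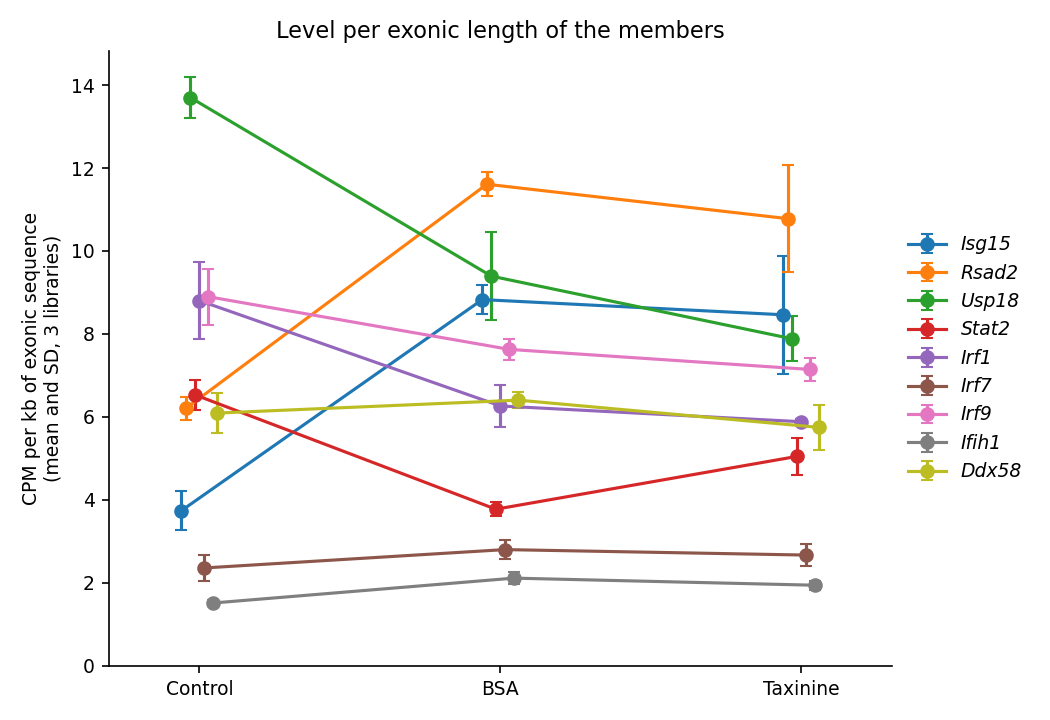
Mean level per kilobase of exonic sequence of the 9 genes in Control, BSA and Taxinine, with SD over 3 libraries. Lines only join the means of one gene. Usp18 is highest in Control at 13.7 and Rsad2 in BSA at 11.6 CPM per kb, and the line of Stat2 has its lowest point in BSA.

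Over the 9 libraries, which share the group structure, the genes closest in pattern to each of the 7 called ones were found by Pearson's r of log2 CPM among 10117 genes. They are given as a description. For Stat2 these were Gtf2a1 (r = 0.99), Aldh5a1 (0.99) and Trmt2a (0.99). Gtf2a1, a general transcription factor gene, was at 52.7, 43.2 and 47.6 CPM in Control, BSA and Taxinine, so its range was narrower than that of Stat2. The closest to Isg15 were Elmo1 (0.99), Midn and Tk2, and among those closest to Rsad2 were Dctn3 (0.99) and Zdhhc13. Usp18 was closest to Arhgap9 (0.99), Zcchc10 and Tuba8, and Irf1 to Srpk1 (0.99), Stk16 and Tnfaip8l2. For Irf9 they were Rmnd1 (0.97), Snapc4 and Cdk6, and among those for Ifih1 were Fam43a (0.98) and Slc38a1 (0.97).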

How the data were processed

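Messenger RNA of 9 mast cell libraries was sequenced as paired reads of 101 bases. STAR 2.7.0f, limma 3.11 and the builds mm10 and GRCm38 are named per the submitters' processing notes. For the annotation, the read counter and its strandedness the sources used here give nothing. Deposited counts are whole numbers, and although the table's name speaks of TMM normalisation, the deposited log2 values equal log2 of CPM plus 1 from plain totals of these counts to within 5e-05, so the counts were used as unscaled. Each gene was counted in 4 or more libraries. edgeR 4.0.16 was fitted to all 9 libraries with TMM factors, without a replicate term, in R 4.3.3; SE is the log2 fold change over the root of F. The test was checked on simulated data. The alternatives were RLE, upper-quartile and total count scaling, DESeq2 1.42.0, limma 3.58.1 on the deposited log2 values, filterByExpr, 2 groups at a time, a replicate block and leaving out each library. The members and gene lists were chosen with earlier results of these data known. From each list up to 4 genes with the smallest p were named, all from lists of 8 or fewer; 2 list symbols were matched through synonyms. Genes of similar pattern needed a mean log2 CPM of at least 1, predicted genes left out, 3 for each called member. Some genes that meet these rules are not reported here. Coordinates are from GENCODE M21 (GRCm38).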

Additional observations from a re-analysis of the deposited data

How the results depend on the processing

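Each of the 9 genes was refitted under 17 alternatives in 3 comparisons. Total count scaling shifted the median of all genes in BSA against Control from -0.0041 to -0.23, and the percentage of calls that were higher from 47.6% to 13.6% (13.6% with limma on the deposited values), and in Taxinine against Control from 48.1% to 15% (15.1%). For Taxinine against BSA it was 40.9% with TMM, 57.6% with total counts and 59.2% with limma. Signs turned with total count scaling and limma in BSA against Control for Ddx58 (-0.15 and -0.15), Jak1 (-0.11 and -0.11), Stat4 (-0.046 and -0.044) and Stat6 (-0.094 and -0.094), and in Taxinine against Control for Irf7 (-0.0085 and -0.017). Leaving out 1 library moved Irf7 in Taxinine against BSA over -0.10 to 0.015, above 0 without BSA replicate 2 (0.015) or Taxinine replicate 1 (0.011), and Isg15 over -0.16 to 0.074, above 0 without Taxinine replicate 1. The count of the 9 called lower in Taxinine against BSA ran from 0 to 1 when a library was left out; the 1 was Usp18, without BSA replicate 2. The replicate numbers gave no sign of pairing: same-numbered deviations from group means correlated at -0.15 to 0.12 and different-numbered ones at -0.12 to 0.15. With 3 libraries a group this cannot exclude shared cultures or processing. The replicate block changed no call of the 9, with 3 higher and 4 lower in BSA against Control and 1 higher and 0 lower in Taxinine against BSA. Genes near 10 CPM or less, Isg15 and Irf7, have the widest errors, with SE of 0.12 to 0.17.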
